A study of Mus musculus with 9 samples.

Results

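Transcripts of 9 genes that build and start the T cell receptor signal were followed in resting regulatory T cells of the mouse. The genes are Cd3e, Cd3d, Cd3g, Cd247, Cd4, Lck, Zap70, Lat and Lcp2, taken by symbol from the deposited table of read counts, and all 9 were found among its 34092 gene rows. The cells were primary mouse T cells, sorted straight from the animal and left unstimulated. WT samples carried the allele Foxp3gfp, a green fluorescent reporter of Foxp3. CNS2KO samples carried Foxp3deltaCNS2-gfp, which keeps the reporter but lacks CNS2, an intronic enhancer of Foxp3. The labels list 6 WT and 3 CNS2KO samples, give no age, sex or tissue, and do not say whether the samples came from separate animals, so the p-values reflect only how far the samples differ among themselves, in part perhaps for technical reasons. One number, 407, appears in both genotypes, and its pair of columns held the same value in every row, so they were left out. The comparison is therefore of 5 WT libraries (398, 402, 405, 1032 and 1037) with 2 CNS2KO libraries (399 and 408).

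The T cell receptor has no signalling tail of its own. It is assembled with the CD3 epsilon, delta, gamma and zeta chains, whose tails carry tyrosine motifs called ITAMs. When the receptor meets peptide on MHC class II, the coreceptor CD4 brings the kinase Lck to those motifs, Lck phosphorylates them, the kinase ZAP-70 docks there, and ZAP-70 phosphorylates the adaptors LAT and SLP-76, on which the downstream enzymes gather. Regulatory T cells need this signal to develop and to keep their suppressive program.

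Reads on genes ranged from 16557424 to 21836578 per library, and the 9 genes held between 1624 and 32148 reads in a library, so counting error was small. Levels are in CPM, counts scaled to the library's reads on genes and by TMM. A floor of 3 reads corresponds to 0.142 to 0.182 CPM; it covers counting error only. The defining markers of regulatory T cells were present in every library, with Foxp3 at 410 to 606 CPM and a summed level of 5 markers of 4090 to 5000 CPM in WT, 4350 CPM in CNS2KO 399 and 5070 CPM in CNS2KO 408. Markers of other cells were low. The 6 CD8 T and NK cell markers summed to 44.7 to 59.1 CPM in WT and to 48.0 and 47.1 CPM in CNS2KO. The highest of these were Cd8b1, at 20.8 to 39.3 CPM, and Prf1, at 11.4 to 25.2 CPM, over all 7 libraries. The NK receptor Ncr1 was at 0 reads in all 7. The 6 B cell markers summed to 44.3 to 53.9 CPM in WT and to 86.5 and 41.2 CPM in CNS2KO 399 and 408, the 6 myeloid markers to 6.98 to 29.6 CPM in WT and 28.4 and 26.9 CPM in CNS2KO, and the 5 erythroid markers to 5.49 to 19.9 CPM in WT, 125 CPM in CNS2KO 399 and 24.1 CPM in CNS2KO 408. Of the erythroid set, the haemoglobin chains Hbb-b1 and Hba-a1 reached 78.4 and 28.9 CPM in CNS2KO 399. Slc4a1 was at 0 reads in 6 of the 7 libraries. In bulk RNA, fewer cells of a type and less RNA per cell cannot be told apart.

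The question the design poses is whether these transcripts differ in resting cells without CNS2. No difference was detected for any of the 9 genes. Their log2 fold changes, CNS2KO minus WT, ran from -0.19 (Cd4) to 0.14 (Cd3d), 5 positive and 4 negative, with a median of 0.00 beside -0.03 over all 14424 genes tested. The 95% intervals of the 9 together spanned 0.68-fold to 1.47-fold, so a change larger than that lies outside the interval of every one of them. By edgeR's quasi-likelihood test 0 of the 9 passed an FDR of 0.05, where the share called over all genes was 0%; 0 of the 9 had an unadjusted p under 0.05, where 361 genes, 2.5%, did. DESeq2 and limma-voom also called 0 of 14424 genes, with 496 and 614 at an unadjusted p under 0.05. Without CNS2KO 408 the edgeR test called 0 of 15797 genes, with 1676 at an unadjusted p under 0.05, and without CNS2KO 399 it called 0 of 15735, with 261.

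**Figure D1:**
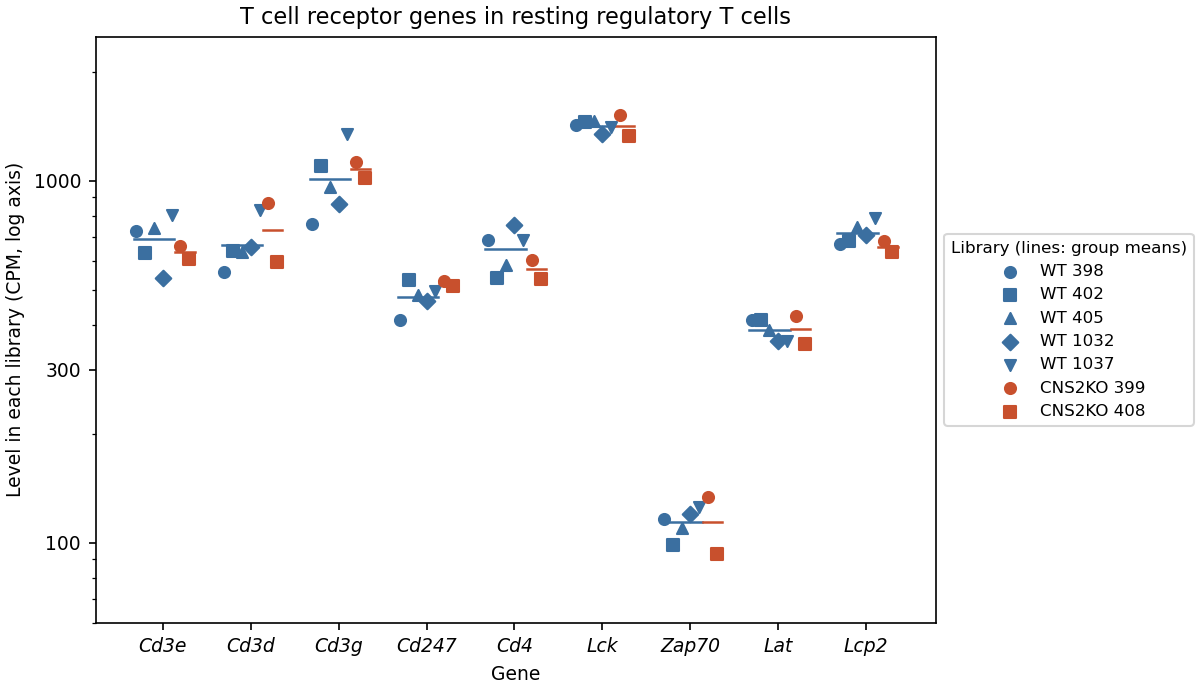
Level of each of the 9 genes in each library, in CPM on a log axis; blue marks are the 5 WT and orange-red marks the 2 CNS2KO libraries, and short lines are group means. The blue marks of Lck lie within 1350 to 1460 CPM and those of Cd3g within 757 to 1350 CPM, and for no gene do both orange-red marks lie on one side of all blue marks.

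Among the CD3 chains, Cd3e, Cd3d and Cd3g stand together on chromosome 9 and Cd247, which encodes the zeta chain, is on chromosome 1. In the RefSeq gene table of GRCm38.p6, Cd3g, Cd3d and Cd3e are consecutive genes, with Cd3g and Cd3d transcribed away from each other. Their upstream sequences are shown because these 3 neighbours did not all vary alike between libraries, as the values below give. Each line is the stretch of 250 bases directly before the RefSeq start (GRCm38.p6), written 5′ to 3′ on the gene's own strand. Capitals mark matches to AGGAAG, a core bound by ETS factors, to TGTGGT, a core bound by RUNX factors, and to TATAAA, the TATA box, each on either strand.
Cd3g, chr9:44980432-44980681, minus strand: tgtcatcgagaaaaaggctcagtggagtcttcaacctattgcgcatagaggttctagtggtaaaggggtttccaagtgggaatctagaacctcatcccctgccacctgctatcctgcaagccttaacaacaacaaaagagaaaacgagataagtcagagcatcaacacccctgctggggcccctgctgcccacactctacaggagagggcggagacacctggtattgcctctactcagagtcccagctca
Cd3d, chr9:44981536-44981785, plus strand: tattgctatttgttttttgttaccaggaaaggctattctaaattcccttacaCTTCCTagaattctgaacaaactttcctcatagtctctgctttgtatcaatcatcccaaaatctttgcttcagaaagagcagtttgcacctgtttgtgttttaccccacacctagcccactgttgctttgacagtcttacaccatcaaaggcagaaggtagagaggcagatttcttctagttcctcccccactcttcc
Cd3e, chr9:45009612-45009861, minus strand: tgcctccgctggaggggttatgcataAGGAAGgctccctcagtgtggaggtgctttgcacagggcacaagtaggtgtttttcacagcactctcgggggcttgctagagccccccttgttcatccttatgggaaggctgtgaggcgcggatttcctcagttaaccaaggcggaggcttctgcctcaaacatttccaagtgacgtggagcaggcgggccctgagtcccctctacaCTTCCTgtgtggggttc
Cd3e holds 2 ETS core matches, which begin 224 and 17 bases before the start, Cd3d holds 1, at 198 bases, and Cd3g holds none. Of 32851 promoter windows of the same length in the RefSeq table, 29.5% hold the ETS core, 14% the RUNX core and 12.4% the TATA box. A match of letters is a description and says nothing of binding.

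Cd3e, the epsilon chain that pairs with delta and with gamma, stood at 727, 633, 742, 538 and 803 CPM in WT 398, 402, 405, 1032 and 1037, and at 659 and 609 CPM in CNS2KO 399 and 408. WT 1032 was the lowest and WT 1037 the highest, with CNS2KO 399 and 408 between them. The means were 689 ± 104 CPM (SD, n = 5) and 634 ± 35.4 CPM (SD, n = 2), a log2 fold change of -0.12 (95% interval -0.50 to 0.26, SE 0.17). Cd3d, the delta chain, stood at 559, 638, 636, 658 and 829 CPM in the WT libraries in the same order, and at 866 and 595 CPM in CNS2KO 399 and 408. CNS2KO 399 was thus the highest of all 7 and CNS2KO 408 the second lowest, so the CNS2KO pair spanned nearly the whole range. The log2 fold change was 0.14 (interval -0.28 to 0.55, SE 0.19), and its sign turned with the library: it was -0.15 without CNS2KO 399 and 0.38 without CNS2KO 408.

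Cd3g, the gamma chain, varied most among WT libraries, at 757, 1100, 961, 863 and 1350 CPM, with 1130 and 1020 CPM in CNS2KO 399 and 408. The WT coefficient of variation, the SD as a share of the mean, was 22.9%, and CNS2KO 399 and 408 were well within the WT values. Against WT the log2 fold change was 0.10 (interval -0.34 to 0.55, SE 0.20), with 0.01 without WT 398 and 0.23 without WT 1037. Cd247, the zeta chain that carries most of the ITAMs of the complex, stood at 413, 532, 484, 465 and 495 CPM in WT and at 528 and 513 CPM in CNS2KO. Both CNS2KO libraries were near the upper end of the WT range, just below WT 402, and the log2 fold change was 0.12 (interval -0.20 to 0.45, SE 0.15). In the GENCODE M21 annotation 3124 of the 4558 exon bases of Cd247 also lie in exons of Pou2f1 or Gm16565, and whether counting used strand was not given, so the Cd247 count is less certain than the others.

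A ratio of reads within a library does not depend on how libraries are scaled, so the make-up of the CD3 reads was compared as well. The chains held 45103 to 67488 reads per library together. Cd3e made up 29.6, 21.8, 26.3, 21.3 and 23.1% of them in the WT libraries and 20.7 and 22.2% in CNS2KO, and Cd3g 30.8, 37.9, 34, 34.2 and 38.8% against 35.6 and 37.3%. WT 398 had the largest share of Cd3e and the smallest of Cd3g. Cd3d made up 22 to 26.1% in WT and 27.2 and 21.7% in CNS2KO, and Cd247 14.2 to 18.4% against 16.6 and 18.7%. The spread between WT libraries, an SD of 1.62 to 3.49 percentage points, was far above the counting error, whose 95% exact binomial interval (Clopper-Pearson) was at most ± 0.436 points. The differences, CNS2KO minus WT, were -2.96 points for Cd3e, 1.01 for Cd3d, 1.30 for Cd3g and 0.652 for Cd247. Without WT 398 those of Cd3e and Cd3g were -1.67 and 0.214 points, and without CNS2KO 408 that of Cd3g was 0.415. In the two-sided exact permutation test over the 21 assignments of 7 libraries into 5 and 2, whose smallest p is 0.0476, their p-values were 0.333, 0.714, 0.619 and 0.714, and all 4 stood at 0.905 after Benjamini-Hochberg adjustment over the 7 ratios tested.

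**Figure D2:**
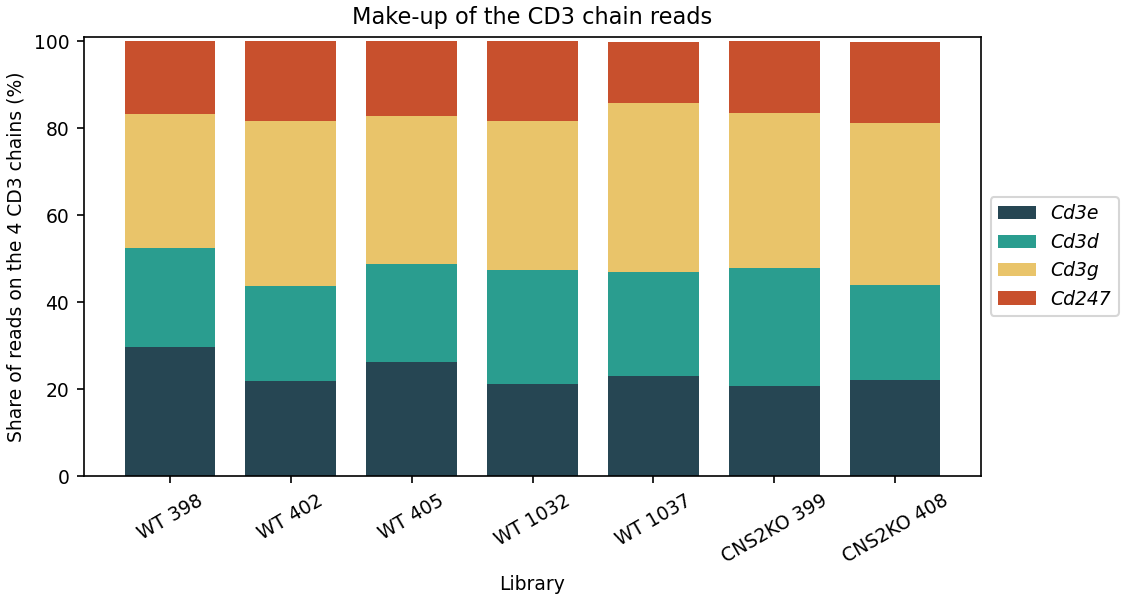
Share of each chain among the reads on the 4 CD3 chains, in percent, stacked per library, with the 5 WT libraries on the left and the 2 CNS2KO libraries on the right. Cd3e takes 29.6% in WT 398 and between 20.7 and 26.3% in the other 6 libraries, and Cd247 stays between 14.2 and 18.7%.

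Cd4, the coreceptor that binds MHC class II and carries Lck, lies on chromosome 6. It stood at 687, 537, 585, 754 and 685 CPM in WT 398, 402, 405, 1032 and 1037 and at 604 and 535 CPM in CNS2KO 399 and 408. CNS2KO 408 was the lowest of the 7, just below WT 402, and CNS2KO 399 lay inside the WT range. The log2 fold change was -0.19 (interval -0.56 to 0.18, SE 0.17), with an unadjusted p of 0.280 and rank 3294 of 14424 by p (edgeR, adjusted p = 1). It was -0.08 with WT numbers of 3 digits only and with a term for libraries 1032 and 1037, and -0.11 without CNS2KO 408. Reads of Cd4 per read of Cd3e were 0.944, 0.848, 0.788, 1.40 and 0.853 in WT and 0.915 and 0.878 in CNS2KO (exact permutation p = 0.857, adjusted p = 0.905). WT 1032, with the highest Cd4 and the lowest Cd3e of the 7, stood apart, and without it the difference in this ratio turned from -0.0701 to 0.0386.

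Lck, the Src family kinase that phosphorylates the ITAMs, lies on chromosome 4 and has a pair of alternative starts in the RefSeq table, which a count per gene cannot tell apart. Lat, on chromosome 7, is the membrane adaptor that ZAP-70 phosphorylates. Lck and Lat had the highest Pearson's r of the 36 pairs of the 9 genes, though it did not pass adjustment, as given below. The windows before these starts are printed for that reason, in the same format and with the same marks.
Lck upstream start, chr4:129573642-129573891, minus strand: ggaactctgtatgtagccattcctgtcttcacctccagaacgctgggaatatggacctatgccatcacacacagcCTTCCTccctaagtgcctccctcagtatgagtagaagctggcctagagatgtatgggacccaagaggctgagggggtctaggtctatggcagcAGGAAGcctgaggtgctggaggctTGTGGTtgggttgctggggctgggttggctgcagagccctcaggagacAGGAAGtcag
Lck downstream start, chr4:129558373-129558622, minus strand: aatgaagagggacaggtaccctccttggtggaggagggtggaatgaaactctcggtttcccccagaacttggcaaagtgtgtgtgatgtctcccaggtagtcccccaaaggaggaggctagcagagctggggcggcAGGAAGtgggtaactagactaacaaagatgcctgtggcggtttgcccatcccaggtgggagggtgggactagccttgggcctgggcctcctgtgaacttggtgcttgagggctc
Lat, chr7:126369569-126369818, minus strand: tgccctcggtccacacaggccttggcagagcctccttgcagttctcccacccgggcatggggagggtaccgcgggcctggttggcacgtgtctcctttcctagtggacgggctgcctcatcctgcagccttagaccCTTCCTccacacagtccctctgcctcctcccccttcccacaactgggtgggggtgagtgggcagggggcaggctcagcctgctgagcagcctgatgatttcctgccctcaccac
The window of the upstream Lck start holds 3 ETS core matches, beginning 175, 82 and 10 bases before the start, and 1 RUNX core match at 58 bases. The downstream Lck start and Lat hold 1 ETS core match each, at 114 bases in both. The RefSeq table has 11 windows for 8 of the 9 genes, and Cd4 is the gene without one. Of the 11, 9 hold an ETS core match, 2 a RUNX core match and 0 a TATA box. Over all 32851 windows the shares were 29.5%, 14% and 12.4%. Lck and Zap70 give more than 1 window each, so the windows are not separate genes.

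Lck stood at 1430, 1450, 1460, 1350 and 1410 CPM in the WT libraries and at 1520 and 1330 CPM in CNS2KO 399 and 408. The WT values lay within a narrow band, and the CNS2KO libraries lay on either side of it, one above every WT library and one below. The WT coefficient of variation was 3.07%, the 8th smallest of the 4016 genes at a mean of 50 CPM or more, whose median was 16.4%; it was the 34th smallest, at 4.54%, when libraries were scaled by total reads only. The means were 1420 ± 43.7 CPM (SD, n = 5) and 1420 ± 136 CPM (SD, n = 2), with a log2 fold change of 0.00 (interval -0.28 to 0.28, SE 0.13). This is the tightest interval of the 9 and leaves out changes below 0.825-fold and above 1.21-fold.

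Zap70, the kinase that docks on phosphorylated ITAMs, lies on chromosome 1. It stood at 116, 98.5, 110, 120 and 125 CPM in WT and at 134 CPM in CNS2KO 399 and 92.8 CPM in CNS2KO 408. As for Lck, the CNS2KO libraries were the highest and the lowest of the 7, and the means were 114 ± 10.3 CPM (SD, n = 5) and 114 ± 29.4 CPM (SD, n = 2). The log2 fold change was -0.01 (interval -0.44 to 0.43, SE 0.20), with -0.29 without CNS2KO 399 and 0.23 without CNS2KO 408. There were 8.13, 6.78, 7.55, 8.89 and 8.87 reads of Zap70 per 100 reads of Lck in WT and 8.85 and 7 in CNS2KO (exact permutation p = 0.905, adjusted p = 0.905).

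Lat stood at 413, 412, 388, 360 and 360 CPM in WT and at 424 and 353 CPM in CNS2KO 399 and 408, again the highest and the lowest of the 7. The log2 fold change was 0.01 (interval -0.33 to 0.34, SE 0.15). Lcp2, on chromosome 11, encodes SLP-76, the cytosolic adaptor that joins LAT, and stood at 670, 683, 744, 709 and 790 CPM in WT and at 680 and 634 CPM in CNS2KO. CNS2KO 408 was the lowest of the 7 and CNS2KO 399 was inside the WT range near its lower end. The log2 fold change was -0.13 (interval -0.44 to 0.18, SE 0.14). Reads of Lcp2 per read of Lat were 1.62, 1.66, 1.92, 1.97 and 2.20 in WT and 1.61 and 1.80 in CNS2KO (exact permutation p = 0.333, adjusted p = 0.905).

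**Figure D3:**
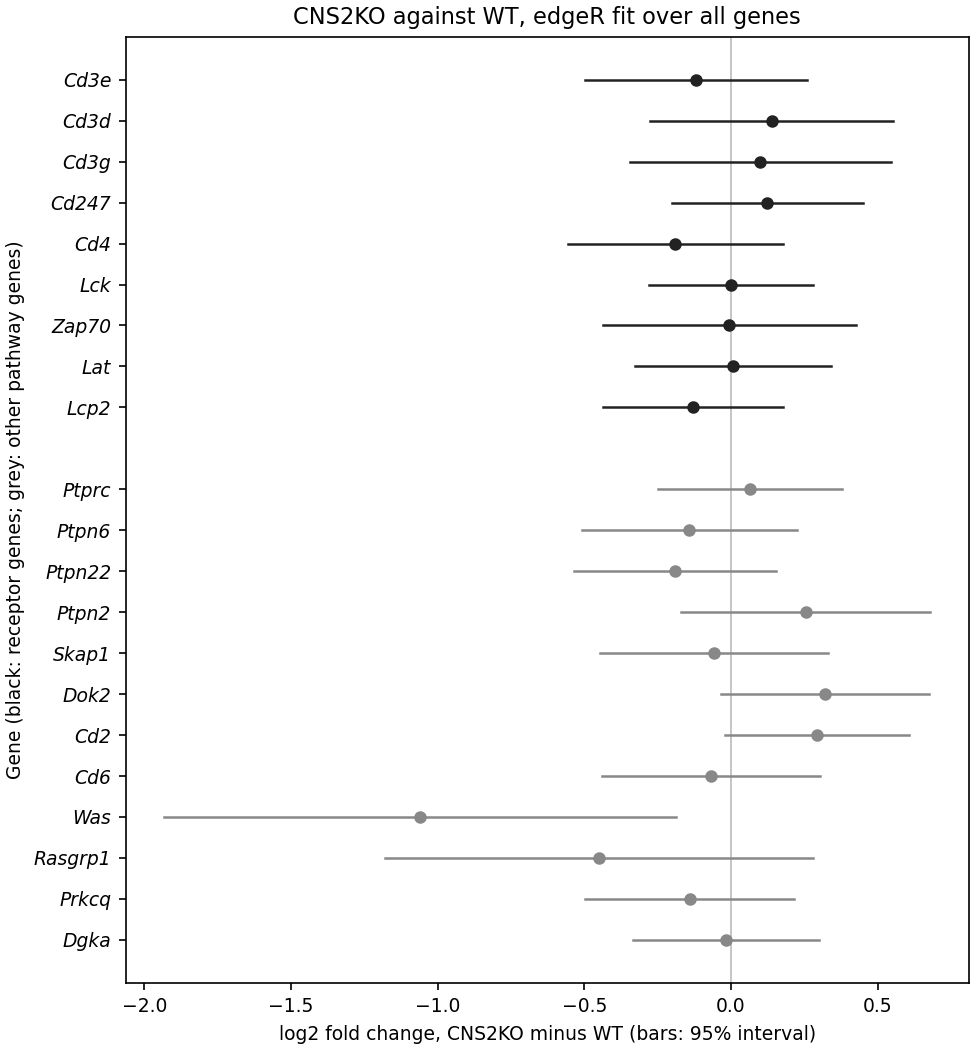
Log2 fold change, CNS2KO minus WT, from the edgeR fit over all genes, with its 95% interval; black points are the 9 receptor genes and grey points are 12 other genes of the pathway. The intervals of all 9 receptor genes hold 0, and of the grey ones that of Was, from -1.93 to -0.19, does not, before adjustment over all genes.

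The CNS2KO libraries differed from each other in the same direction for every one of the 9 genes. CNS2KO 399 was above CNS2KO 408 in 9 of 9, where 45.6% of all genes tested were. The log2 ratio of 399 over 408 ran from 0.04 for Cd247 to 0.54 for Cd3d, with a median of 0.17, while the median over the 4016 genes at 50 CPM or more was -0.03. In 3 of 9, Lck, Zap70 and Lat, CNS2KO 399 was the highest and CNS2KO 408 the lowest of the 7, a pattern held by 2.07% of genes tested. The count of 9 held under the 4 scalings of libraries tried, but the genes at both extremes were Lck, Zap70 and Lat under 3 of them and Cd3d and Zap70 when libraries were scaled by total reads only. A one-sided count of 9 was also found for WT 402 over CNS2KO 408, and among the 10 pairs of WT libraries the farthest count was 2 against 7. The summed CPM of the 9 genes was 6550 in CNS2KO 399 and 5684 in CNS2KO 408. In WT it ran from 5769 in WT 398 to 6850 in WT 1037, so WT 1037 was above CNS2KO 399. This compares 2 libraries of 1 genotype, has no replicate and was not among the planned tests. CNS2KO 399 also had the highest summed erythroid and B cell markers, 125 and 86.5 CPM as given above, and the part of these in the result was not tested.

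**Figure D4:**
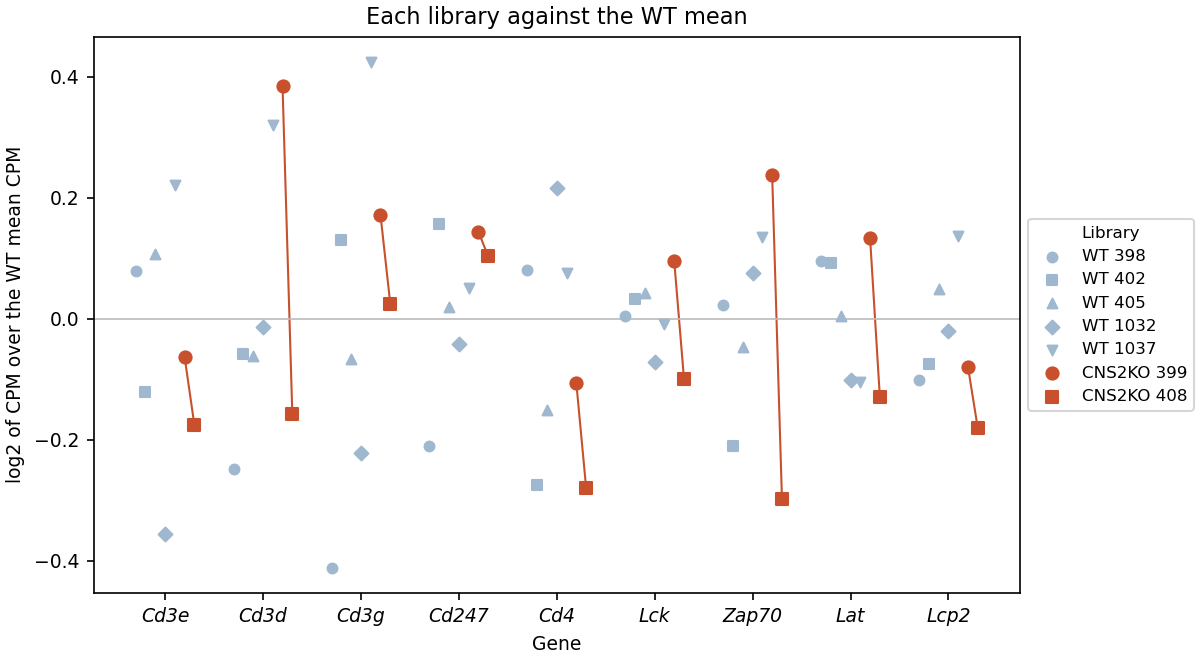
Level of each gene in each library against its WT mean, as log2 of the ratio, with the WT libraries in pale blue and each gene's CNS2KO pair joined by an orange-red line. CNS2KO 399 lies above CNS2KO 408 for all 9 genes, by 0.04 for Cd247 and by 0.54 for Cd3d.

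Levels can be set beside each other only per length, and were divided by the longest coding transcript of each gene in GENCODE M21. In WT the order was Cd3g at 984 ± 225 CPM per kilobase (SD, n = 5), Lck at 651 ± 20, Cd3e at 471 ± 71.0, Cd3d at 411 ± 61.6, Lat at 313 ± 21.4, Cd4 at 209 ± 28.1, Lcp2 at 197 ± 13.4, Cd247 at 162 ± 14.8 and Zap70 at 50.8 ± 4.58. The CNS2KO means per kilobase were 1060 for Cd3g, 651 for Lck, 434 for Cd3e, 452 for Cd3d, 315 for Lat, 183 for Cd4, 180 for Lcp2, 176 for Cd247 and 50.6 for Zap70. Neighbours in this order kept it in all 7 libraries except Cd3e over Cd3d, which held in 5 of 7, and Cd4 over Lcp2, which held in 4 of 7, and these neighbours did not differ beyond their spread. Per kilobase Lck stood 11.6-fold to 15.2-fold above Zap70 over the 7 libraries, with a WT mean of 12.9 ± 1.52 (SD, n = 5), so the second kinase of the chain was far less abundant in reads than the first. With the union of exons as length the order was the same. The place of Cd247 is less certain than the others. Of its 4558 exon bases 3124 are shared with other genes, and how such reads were counted was not given.

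The pairs of the 9 genes differed widely in how their levels ran together over libraries. Over the 7 libraries, Pearson's r of log2 CPM for the 36 pairs ran from -0.67 to 0.84 with a median of 0.24, and 25 were positive. By the exact permutation test 3 pairs had an unadjusted p under 0.05 and 0 passed adjustment over the 36. Lck and Lat had r = 0.84 (exact permutation p = 0.0190, adjusted p = 0.519) and Spearman's rho = 0.82 (exact permutation p = 0.0341, adjusted p = 0.634), and r = 0.665 without CNS2KO 399 and 408. The neighbours Cd3d and Cd3g had r = 0.76 (exact permutation p = 0.0433, adjusted p = 0.519) and rho = 0.71 (exact permutation p = 0.0881, adjusted p = 0.634), and r = 0.48 without CNS2KO 399 and WT 1037. Cd3g and Cd247 had r = 0.77 (exact permutation p = 0.0413, adjusted p = 0.519) and rho = 0.75 (exact permutation p = 0.0663, adjusted p = 0.634), with r = 0.98 without WT 398 and 1037. Cd3e, the third neighbour on chromosome 9, had r = 0.24 with Cd3d (exact permutation p = 0.583, adjusted p = 0.833; rho = 0.07, exact permutation p = 0.906, adjusted p = 0.906) and 0.325 with Cd3g (exact permutation p = 0.481, adjusted p = 0.833; rho = 0.32, exact permutation p = 0.498, adjusted p = 0.896). Without WT 1032 and 1037 these were -0.17 and -0.66. The most negative pair was Cd247 and Cd4 at r = -0.67 (exact permutation p = 0.0883, adjusted p = 0.624), with rho = -0.71 (exact permutation p = 0.0881, adjusted p = 0.634) and r = -0.68 without WT 398 and 402. All libraries share their scaling, which ties the levels of genes within a library.

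**Figure D5:**
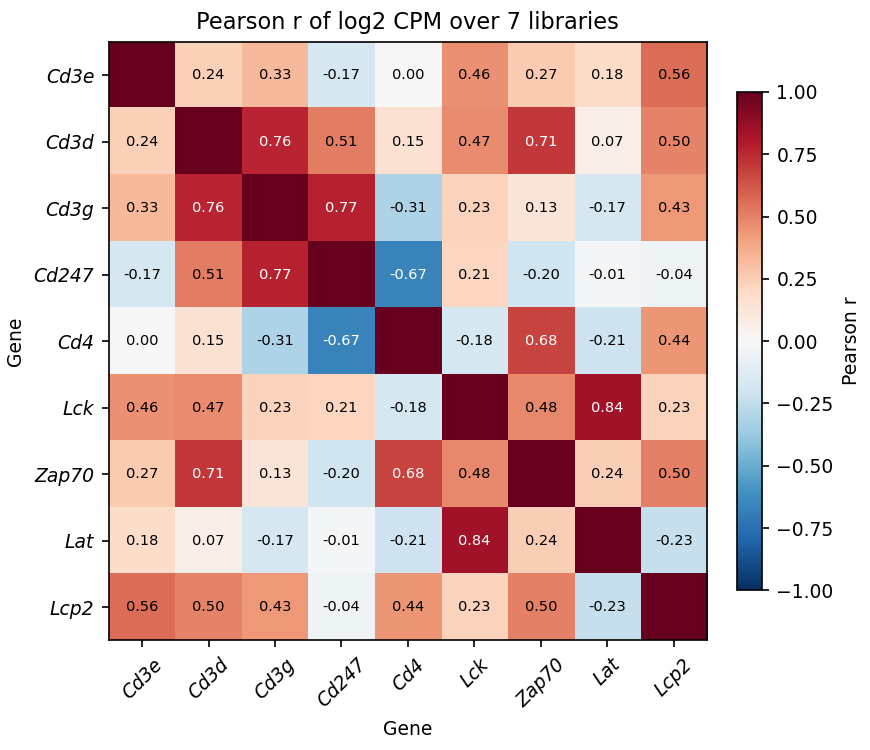
Pearson's r of log2 CPM over the 7 libraries for each pair of the 9 genes, coloured from -1 (blue) to 1 (red). The highest off the diagonal is Lck with Lat at 0.84 and the lowest Cd247 with Cd4 at -0.67, and the Cd3e row holds no value above 0.56.

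The genes whose pattern over the 7 libraries was most like that of the summed CD3 chains, among 4012 others at 50 CPM or more, were Atp5g3 (r = 0.985), Sri (0.974), H47 (0.967) and Snx22 (0.961). For Cd4 they were Itih5 (0.94), C330019G07Rik (0.93), Erp29 (0.93) and Gusb (0.93), and for Lck they were Pkp3 (0.97), Anapc16 (0.95), Rrp1 (0.95) and Rad9 (0.95). Over 7 points and so many genes these values are a description only.

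Of 51 other genes of the pathway, 51 were tested, 0 were called in either direction and 1, Was, had an unadjusted p under 0.05, where 2.5% of all genes did. Fold changes were positive in 19 and negative in 32, with a median of -0.07 beside -0.03 over all genes. The list of other kinases and phosphatases of the receptor had 7 positive and 6 negative members (median 0.00). Ptprc, the phosphatase CD45 that keeps Lck ready to act, stood at 3560 to 4430 CPM in WT libraries and at 3530 and 4720 CPM in CNS2KO 399 and 408, the order opposite to that of the 9 genes. Ptpn6, the phosphatase SHP-1, stood at 298 to 338 CPM in WT and 330 and 243 CPM in CNS2KO (log2 fold change -0.14). The inhibitory phosphatases Ptpn22 (-0.19) and Ptpn2 (0.26) had the smallest p of this list, at 0.25 and 0.213 unadjusted (edgeR, adjusted p = 1). Syk, the B cell counterpart of Zap70, was at 3.15 ± 1.45 CPM in WT and at 4.87 and 3.35 CPM in CNS2KO; it was chosen for mention with its values known.

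The other adaptors and membrane scaffolds had 9 positive and 13 negative members of 22 (median -0.055). Cd2, an adhesion receptor that aids the signal, stood at 1090 to 1320 CPM in WT and 1600 and 1300 CPM in CNS2KO, with a log2 fold change of 0.29 (SE 0.14, edgeR unadjusted p = 0.0630, adjusted p = 1). Dok2, an adaptor that dampens the signal, stood at 163 to 204 CPM in WT and 237 and 211 CPM in CNS2KO, with both CNS2KO libraries above every WT library, as in 3.76% of all genes tested; its log2 fold change was 0.32 (SE 0.16, edgeR unadjusted p = 0.0731, adjusted p = 1). The adaptor Skap1 (-0.06) and the scavenger receptor family member Cd6 (-0.07) followed Cd2 in CPM, which is not corrected for length, at WT means of 695 and 708 CPM.

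The downstream enzymes and channels had 3 positive and 13 negative members of 16 (median -0.15), where 7589 of all 14424 genes were negative. The median was -0.071 without CNS2KO 399 and -0.076 without WT 405. Was, the actin regulator WASP, lies on chromosome X, as does Foxp3, and the labels give no sex. It stood at 15.3 to 31.9 CPM in WT and at 6.99 and 15.1 CPM in CNS2KO, with a log2 fold change of -1.06 (SE 0.40, edgeR unadjusted p = 0.0215, adjusted p = 1). It was -0.60 without CNS2KO 399 (edgeR unadjusted p = 0.207, adjusted p = 1), -1.72 without CNS2KO 408 (0.00535, adjusted p = 0.239) and -0.99 with WT numbers of 3 digits only (0.0587, adjusted p = 1). In level, CNS2KO 399 and 408 were the lowest of the 7, the latter only just under the lowest WT library, a pattern held by 3% of all genes tested. Dgka, the diacylglycerol kinase that limits Ras activation, had the most CPM of the list, at 982 ± 95.9 CPM in WT and 1010 and 934 CPM in CNS2KO (log2 fold change -0.02). Prkcq, protein kinase C theta, stood at 310 to 382 CPM in WT and 292 and 363 CPM in CNS2KO (-0.14), and Rasgrp1, the exchange factor that loads Ras, at 167 to 345 CPM against 125 and 242 CPM (-0.45). The Rasgrp1 value rested on the CNS2KO library used, at -0.05 without CNS2KO 399 and -1.02 without CNS2KO 408 (edgeR unadjusted p = 0.907 and 0.0336, adjusted p = 1 and 0.415).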

How the data were processed

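RNA of resting cells was amplified by a SMARTer protocol for Proton sequencing, per the labels' protocols. STAR, BWA, edgeR and mm9 are listed, without versions or roles, per the submitters' processing notes. No source used here gives the read counter, annotation or strand setting. The tables deposited by the authors hold raw read counts by symbol, log2 values of unstated scaling, and 1 signed score per gene with no groups named. Of 9 value columns per table, 2 numbered 407 were not used. The 5 counter summary rows were left out; reads on genes were 22 to 23.7% of each column. Between used libraries chi-square per degree of freedom was at least 30.8, so no pair agreed within sampling noise.

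Counts were fitted in R 4.3.3 with edgeR 4.0.16 (filterByExpr, TMM, two-sided quasi-likelihood test, Benjamini-Hochberg over 14424 genes) and tested on simulated data. CPM uses gene rows and is TMM-scaled; intervals are 95%. DESeq2 1.42.0, limma 3.58.1, scalings, filters and left-out libraries were alternatives. Named genes were the 9, the 3 most abundant and 2 of smallest p per pathway list, up to 2 per marker list and the 4 most alike in pattern at 50 CPM or more. Of the genes this rule names, 2 are not reported here. Members and lists were chosen with earlier results of these data known. Sequences are from RefSeq (GRCm38.p6), matched by symbol for 8 of 9 genes, and lengths from GENCODE M21, a later build than mm9. Protein sequences were not used here.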

Additional observations from a re-analysis of the deposited data

Results flagged for a closer look

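Among 33 sets of 5 WT values, 2 held a library that stood apart by Dixon's criterion, which chance alone passes in about 1 of 20. The ratio of Cd4 reads to Cd3e reads was 1.40 in WT 1032, against 0.944 in the next WT library. Prkcq stood at 310 CPM in WT 1037, against 364 CPM in the next.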

How the results depend on the processing

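No paired analysis was possible because the groups share only the number 407, whose columns were not used. Under all alternatives run, 0 of the 9 genes passed, and no gene of the whole table passed in any setting but one: 8 genes passed when low counts were not filtered, none of them among the 9. With 2 CNS2KO libraries the smallest exact permutation p is 0.0476, and fits without a CNS2KO library take their spread from WT alone. The cause of the changes below was not tested. Lck, at 0.00, had negative log2 fold changes of -0.0057 with relative log expression and with DESeq2, -0.005 with upper-quartile scaling, -0.0562 with total reads only, -0.0018 with limma-voom, -0.0029 with no filter, -2e-04 on the authors' log2 values, -0.0247 with WT numbers of 3 digits only and -0.0253 with a term for 1032 and 1037. The last 2 settings gave 0.0702 and 0.0694 for Zap70, -0.0569 and -0.0576 for Lat (-0.0512 with total reads only), -0.0814 and -0.0821 for Cd4, 0.2002 and 0.1996 for Cd3g, 0.2592 and 0.2584 for Cd3d, 0.0186 and 0.0179 for Cd6, 0.0022 and 0.0016 for Dgka, and a median of -0.113 for the kinases and phosphatases list in both. WT numbers of 3 digits only gave differences of 0.441 in Zap70 per 100 Lck reads and 0.0369 in Cd4 per Cd3e read. With each library left out, log2 fold changes ranged from -0.1952 to -0.0573 for Cd3e, 0.0142 to 0.2292 for Cd3g, 0.076 to 0.1651 for Cd247, -0.2745 to -0.1146 for Cd4, -0.1766 to -0.0872 for Lcp2, 0.1 to 0.3941 for Ptpn2, -0.2739 to -0.1147 for Ptpn22, 0.1428 to 0.4282 for Cd2, 0.2372 to 0.3942 for Dok2, -1.0181 to -0.0451 for Rasgrp1, -1.7216 to -0.6048 for Was, -0.153 to 0.378 for Cd3d, -0.096 to 0.0881 for Lck, -0.293 to 0.229 for Zap70, -0.126 to 0.125 for Lat, -0.166 to 0.263 for Ptprc, -0.376 to 0.0553 for Ptpn6, -0.159 to 0.0106 for Cd6, -0.210 to 0.0761 for Skap1, -0.0679 to 0.0291 for Dgka and -0.314 to 0.0113 for Prkcq. The list medians ranged from -0.113 to 0.043 for kinases and phosphatases, -0.081 to -0.007 for adaptors and -0.171 to -0.071 for downstream genes. The share differences ranged from -3.74 to -1.67 points for Cd3e, 0.214 to 2.22 for Cd3g, -1.72 to 3.75 for Cd3d and -0.43 to 1.73 for Cd247, and the ratio differences from -1.04 to 0.81 for Zap70 per 100 Lck reads, -0.268 to -0.0765 for Lcp2 per Lat read and -0.115 to 0.0386 for Cd4 per Cd3e read. With total reads only, r was 0.118 for Cd3e and Cd4, against 0 with TMM. In that setting r was -0.108 for Cd3d and Lat, -0.287 for Cd3g and Lck, -0.076 for Cd3g and Zap70, -0.127 for Cd247 and Lck, 0.177 for Cd4 and Lck, 0.083 for Cd4 and Lat and 0.027 for Lat and Lcp2, each of the other sign with TMM. It was 0.67 for Cd3d and Cd3g, 0.58 for Cd3g and Cd247 and 0.914 for Lck and Lat. The comparison of CNS2KO 399 with 408, the rank of the spread of Lck and the order per length are descriptions outside the planned tests. The exon-union lengths, the other scalings of the comparison of CNS2KO 399 with 408 and those of the spread of Lck were chosen after seeing the data. Of 583 values recomputed, 524 were counted as the same, 55 as reversed in sign and 4 as moved. Small list medians that crossed 0 were counted as the same. A reversed sign could still lie within the spread, as for Lck, whose SE was 0.13.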

Other observations

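The authors' deposited table of signed values does not name its groups, its direction or its log base. Its values are therefore not set against the log2 fold changes above, and what their signs mean for CNS2KO against WT is unknown. In the authors' deposited table the 9 genes ran from -0.235 for Zap70 to 0.164 for Cd3e, with 5 positive and 4 negative values. The median of the 9 in the authors' deposited table was 0.006, beside 0.009 over all genes tested. Cd247 had 0.163, Cd4 0.075, Cd3g 0.011, Lck 0.006, Lat -0.022, Cd3d -0.031 and Lcp2 -0.04 in the authors' deposited table.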
